A study of Gallus gallus with 6 samples.

Results

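The genes described here encode splicing factors and nuclear ribonucleoproteins, and they numbered 48 of the 15656 genes with a usable symbol in the table. They were taken by the start of their symbols. The set comprised 11 SR protein genes (SRSF), 17 heterogeneous nuclear ribonucleoprotein genes (HNRNP), 8 genes of the SF3A and SF3B complexes, 10 small nuclear ribonucleoprotein genes (SNRP) and the 2 U2AF genes. All 48 passed the filter of a mean of at least 1 FPKM (fragments per kilobase of gene, scaled to sequencing depth) over the 6 libraries.

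RNA-seq was made from mucosa of the jejunum, the middle stretch of the small intestine, in breeder hens aged 28 weeks. Heat-adapted hens were Leuang Hang Kao chickens, and heat-sensitive hens were SUT chickens. Hens of both groups had been exposed to 36 °C for 6 h before sampling. Each group had 3 libraries, each from the pooled RNA of 4 hens. No unheated hens were analysed here, so differences between the groups are differences between heated hens, and breed and heat tolerance cannot be told apart. The study's text speaks of random assignment of hens to the groups, whereas the labels give each group its own breed. Nothing in the labels ties a library of one group to a library of the other, and with 4 hens per pool the spread between libraries is the spread between pools.

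The spliceosome removes introns from precursor mRNA and is assembled anew on each intron from small nuclear ribonucleoproteins. Most of these are built on a ring of Sm proteins around a small nuclear RNA. U2AF and the SF3 complexes place the U2 particle at the end of the intron, while SR proteins mostly favour and hnRNP proteins often oppose the use of nearby splice sites. Heat is known to disturb splicing in animal cells. Roles named below are those known from mammals.

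The values are FPKM as deposited, rounded by the authors to 2 decimals, and can be compared between genes because they are scaled for length. They summed to 779174 to 884625 in the heat-adapted and 892744 to 897548 in the heat-sensitive libraries. The deposited read counts, which stand in another row order than the symbols, summed to 12729667 to 13070796 in the heat-adapted and 10829957 to 12212660 in the heat-sensitive libraries. A search on the heat-sensitive columns matched 106 genes to their read count rows. In those rows each gene's log2 ratio of read count to FPKM was taken relative to its mean over the heat-sensitive libraries. This relative ratio had an SD across genes of 0.684 to 0.843 in the heat-adapted columns. In the heat-sensitive columns its SD was 0.00105 to 0.00177, which is small because the rows were matched on these columns. In these rows, as matched, counts and FPKM under the same heat-adapted label were thus not proportional. Wrongly matched rows would also widen the SD in the heat-adapted columns, so the SD alone cannot tell a wrong match from unlike columns. The sources used here do not say whether the counts or the FPKM hold the labelled heat-adapted libraries. All results below are those of the FPKM columns. Enterocyte markers were present throughout, with 12 of 13 in the table, none at 0 in all libraries, and summed levels of 34338 to 51225 FPKM in heat-adapted and 20556 to 42715 FPKM in heat-sensitive libraries.

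Most splicing factor genes had lower levels in the heat-adapted than in the heat-sensitive libraries by a small margin, and none passed the test across all genes. Of the 48 genes, 45 had a log2 difference below 0 (heat-adapted minus heat-sensitive, on log2(FPKM + 1)), with a median of -0.25, while 58.3% of all 11587 genes tested were below 0, with a median of -0.058. With limma and an adjusted p under 0.05, 0 of the 48 were called, against 0.0949% of all genes tested. At an unadjusted p under 0.05, 13 of the 48 were lower, against 10.9% of all genes tested, and 0 were higher, against 7.13%. The groups did not overlap in 19 of the 48 with the heat-adapted libraries lower, against 12.9% of all genes, and in 1 with them higher, against 9%. These counts depend on the scale: with FPKM rescaled to TPM, which gives every library the same sum, 36 of the 48 were lower and 5 had an unadjusted p under 0.05 (10.4%, against 6.05% of all genes), and with median-of-ratios scaling 40 were lower and 5 had such a p (10.4%, against 8.59%).

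With TPM, the median over all genes tested became 0.052. Relative to the median of all genes, the median of the 48 was -0.19 with FPKM, -0.18 with TPM, -0.19 with median-of-ratios scaling and -0.25 with quantile normalization. The 36 genes lower with TPM were lower in all 4 scalings, and SRSF5, HNRNPD and HNRNPDL were higher in all 4. The remaining 9 (HNRNPA0, HNRNPA3, HNRNPR, HNRNPUL2, SF3A1, SNRPD3, SRSF11, U2AF1 and U2AF2) had log2 differences below 0 in FPKM and above 0 in TPM. SF3B5, SRSF3, SRSF10, SNRPL and SNRPF had an unadjusted p under 0.05 in all 4 scalings.

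**Figure D1:**
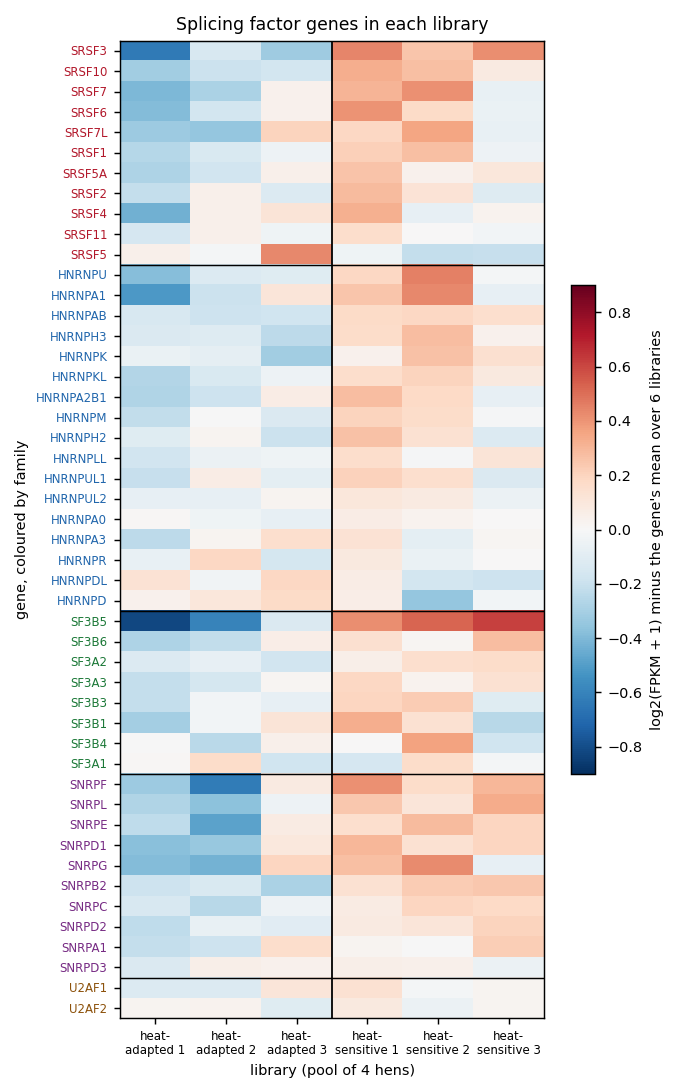
Heat map of the 48 splicing factor genes (rows, grouped by family and coloured by family name) in the 6 libraries (columns); colour gives log2(FPKM + 1) minus the gene's mean over the libraries. Heat-adapted replicate 1 is blue in most rows, with the lowest value of 28 genes, and heat-sensitive replicate 1 red in most, with the highest value of 20 genes.

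The libraries of each group differed among themselves. The 48 genes together summed to 4781, 5047 and 5656 FPKM in the heat-adapted libraries, against 6557, 6407 and 5768 FPKM in the heat-sensitive ones. The highest heat-adapted sum, that of replicate 3, lay close to the lowest heat-sensitive one, that of replicate 3. As a share of all FPKM in a library, the 48 genes held 0.594, 0.648 and 0.639% in heat-adapted replicates 1, 2 and 3, against 0.731, 0.716 and 0.646% in heat-sensitive replicates 1, 2 and 3, so the groups overlapped on this measure. Heat-adapted replicate 1 held the lowest value of 28 genes. Heat-sensitive replicates 1 and 2 held the highest value of 20 and 14 genes. Without one library in turn, the number of genes lower at an unadjusted p under 0.05 was 6 without the first heat-adapted replicate, 6 without the second, 20 without the third, 5 without the first heat-sensitive replicate, 7 without the second and 14 without the third. The share of all genes tested that were lower at such a p moved too, at 5.09%, 9.77%, 13.3%, 6.95%, 7.02% and 13.8% in the same order. SF3B5, SRSF3, SRSF10, SNRPB2 and SNRPL kept such a p in all 6 of these fits, and 39 of the 48 genes were lower in all 6.

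**Figure D2:**
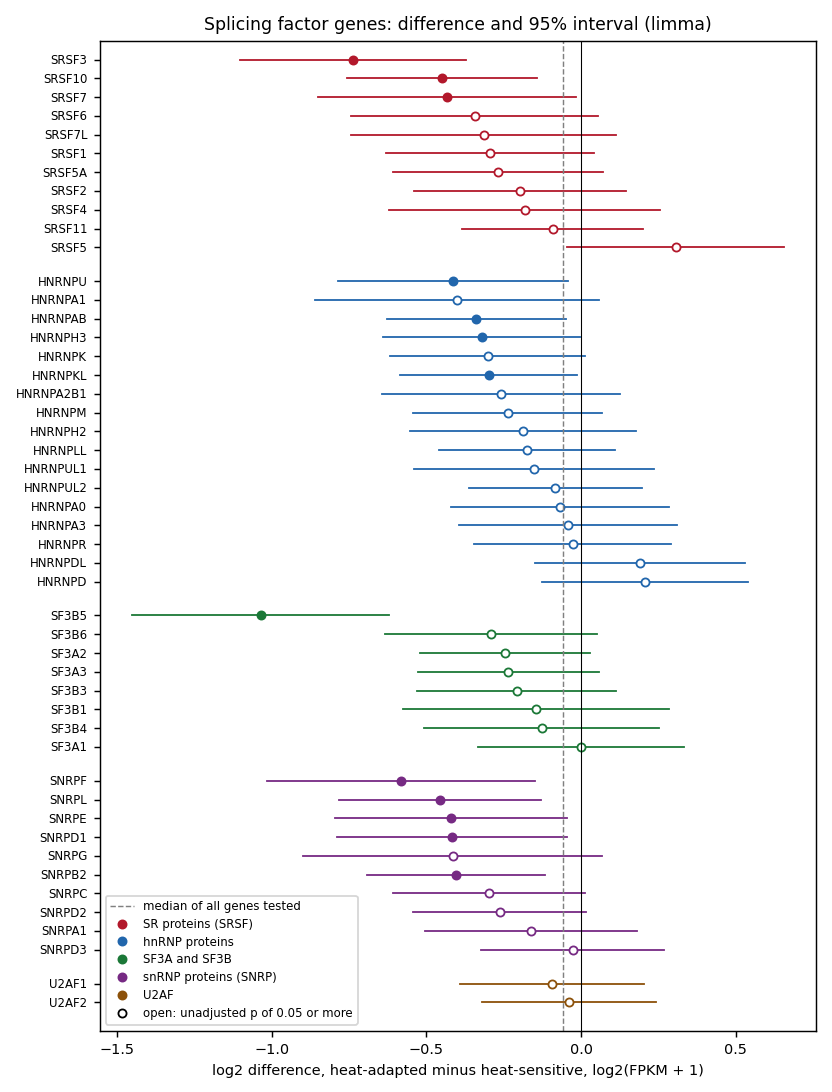
Log2 difference of each gene (heat-adapted minus heat-sensitive, log2(FPKM + 1), horizontal axis) with its 95% interval from limma; filled points have an unadjusted p under 0.05, and the dashed line is the median of all genes tested. SF3B5 and SRSF3 lie farthest to the left, at -1.04 and -0.74, and SRSF5, HNRNPD and HNRNPDL are the points right of 0.

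SR proteins bind exon sequences through RNA recognition motifs and recruit the splicing machinery through a domain rich in arginine and serine. Of the 11 SRSF genes, 10 had lower FPKM in the heat-adapted libraries (median log2 difference -0.29), and 3 had an unadjusted p under 0.05, against 10.9% of all genes tested. In TPM these numbers were 9 and 2, against 6.05% of all genes at such a p. The widest difference was that of SRSF3, the smallest SR protein, which also couples splicing to mRNA export. SRSF3 was at 75.3, 106 and 93.7 FPKM in the heat-adapted libraries, against 160.1, 139.7 and 157 FPKM in the heat-sensitive ones. The groups did not overlap, and the gap between them was wider than the range within either group (log2 difference -0.74, SE 0.16, limma adjusted p = 0.102). SRSF10, an SR protein that represses splicing when it loses its phosphates during heat shock, was at 85.2, 92.5 and 94.2 FPKM in the heat-adapted libraries, against 133, 128 and 112 FPKM in the heat-sensitive ones. Its heat-adapted libraries lay close together and all below the heat-sensitive ones (log2 difference -0.45, SE 0.14, limma adjusted p = 0.166). SRSF7, which carries a zinc knuckle beside its RNA recognition motif and had the highest level of the family, was at 168, 183 and 228 FPKM in the heat-adapted libraries, against 275, 297 and 212 FPKM in the heat-sensitive ones. Here heat-adapted replicate 3 lay above heat-sensitive replicate 3, and the groups overlapped (log2 difference -0.43, SE 0.18, limma adjusted p = 0.263).

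SRSF5 was the only family member with a higher mean in the heat-adapted libraries in FPKM, while in TPM SRSF11 also had a log2 difference above 0. SRSF5 was at 30.9, 29.4 and 40.6 FPKM in the heat-adapted libraries, against 29.1, 25.5 and 25.8 FPKM in the heat-sensitive ones, and was the single gene of the 48 whose heat-adapted values all lay above its heat-sensitive ones (log2 difference 0.31, SE 0.15, limma adjusted p = 0.331). Its heat-adapted values spread widely, with replicate 3 far above the other two. With TPM and with median-of-ratios scaling its unadjusted p was under 0.05, with log2 differences of 0.43 and 0.38. In each of these scalings it was the 1 gene of the 48 higher at such a p. Of all 11587 genes, 1342 were so with TPM and 1130 with median-of-ratios scaling. Without heat-adapted replicate 3 its log2 difference in FPKM was 0.17. SRSF5A, listed as a separate gene, was at 161, 173 and 201 FPKM in the heat-adapted libraries, against 234, 201 and 209 FPKM in the heat-sensitive ones, with a log2 difference of -0.27. SRSF1, the prototype of the family, averaged 150.1 ± 11.0 FPKM in heat-adapted and 185 ± 21.4 FPKM in heat-sensitive libraries (SD, n = 3 each), and its groups touched without overlapping, at 160.47 in heat-adapted replicate 3 and 160.49 in heat-sensitive replicate 3. SRSF6, SRSF7L, SRSF2, SRSF4 and SRSF11 overlapped between the groups, with log2 differences of -0.34, -0.31, -0.20, -0.18 and -0.092. SRSF4 was the least expressed SRSF gene, at a mean of 7.77 FPKM over the 6 libraries. SRSF7 and SRSF7L lie near each other in the RefSeq gene order of assembly GRCg7b, with 1 gene between them, and the sources used here do not say how reads shared by similar genes were counted.

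The SNRP genes had the most negative median of the families, and 7 of the 10 did not overlap between the groups with the heat-adapted libraries lower, against 12.9% of all genes tested. All 10 had lower FPKM in the heat-adapted libraries (median log2 difference -0.41), 9 of the 10 in TPM. An unadjusted p under 0.05 was reached by 5 in FPKM, against 10.9% of all genes tested, and by 2 in TPM, against 6.05%. They include the subunits of the Sm ring, the collar shared by most of the major spliceosomal particles, and proteins particular to U1 or U2. SNRPL, which RefSeq gives as a synonym of SNRPN together with SNRPB, the gene of ring subunit SmB, was at 78.3, 72.8 and 91.6 FPKM in the heat-adapted libraries, against 112, 102 and 119 FPKM in the heat-sensitive ones (log2 difference -0.46, SE 0.14, limma adjusted p = 0.176). SNRPF, another ring subunit, was at 114, 91.9 and 150.4 FPKM in the heat-adapted libraries, against 189.8, 159.6 and 175 FPKM in the heat-sensitive ones. Its groups did not overlap, although heat-adapted replicate 3 came close to heat-sensitive replicate 2 (log2 difference -0.58, SE 0.19, limma adjusted p = 0.187). SNRPE was at 107, 90.0 and 133 FPKM in the heat-adapted libraries, against 139.8, 153 and 144 FPKM in the heat-sensitive ones (log2 difference -0.42, SE 0.17, limma adjusted p = 0.243). SNRPD1 was at 125, 129 and 174 FPKM in the heat-adapted libraries, against 201, 180.0 and 187 FPKM in the heat-sensitive ones (log2 difference -0.42, SE 0.16, limma adjusted p = 0.244). In both of these ring subunits heat-adapted replicate 3 lay well above the other 2 heat-adapted libraries and just under the heat-sensitive ones.

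The other 3 ring subunits behaved less evenly. SNRPG, the most abundant SNRP gene, was at 243, 237 and 365 FPKM in the heat-adapted libraries, against 384, 429 and 303 FPKM in the heat-sensitive ones. RefSeq lists this symbol only as a synonym of SNRPGP15, so which gene it stands for is not certain. In SNRPG heat-adapted replicate 3 exceeded heat-sensitive replicate 3, and the groups overlapped (log2 difference -0.41, SE 0.21, limma adjusted p = 0.338). SNRPD2, the least abundant ring subunit, averaged 29.2 ± 1.71 FPKM in heat-adapted and 35.2 ± 1.63 FPKM in heat-sensitive libraries (SD, n = 3 each) without overlap (log2 difference -0.26). SNRPD3 was at 95.8, 109 and 108 FPKM in the heat-adapted libraries, against 109, 108 and 101 FPKM in the heat-sensitive ones, and its log2 difference was -0.027, with a 95% interval of -0.32 to 0.27. Ring subunits thus spanned mean levels of 32.2 FPKM for SNRPD2 to 327 FPKM for SNRPG, although the ring holds 1 copy of each. Of the 7 ring subunits, 5 did not overlap between the groups and 4 had an unadjusted p under 0.05, against 12.9% and 10.9% of all genes tested with the heat-adapted libraries lower.

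Among proteins of single particles, SNRPB2, which binds U2 RNA, was at 78.6, 81.6 and 73.6 FPKM in the heat-adapted libraries, against 98.7, 106 and 106 FPKM in the heat-sensitive ones. Values within each group were close, and the groups were well apart (log2 difference -0.40, SE 0.13, limma adjusted p = 0.176). SNRPA1, its partner on U2 RNA, averaged 67.2 ± 10.3 FPKM in heat-adapted and 74.9 ± 6.48 FPKM in heat-sensitive libraries (SD, n = 3 each), with overlapping groups (log2 difference -0.16). SNRPC, which helps the U1 particle hold the start of the intron, averaged 178 ± 12.8 FPKM in heat-adapted and 219 ± 10.2 FPKM in heat-sensitive libraries (SD, n = 3 each), without overlap (log2 difference -0.30, limma adjusted p = 0.295).

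**Figure D3:**
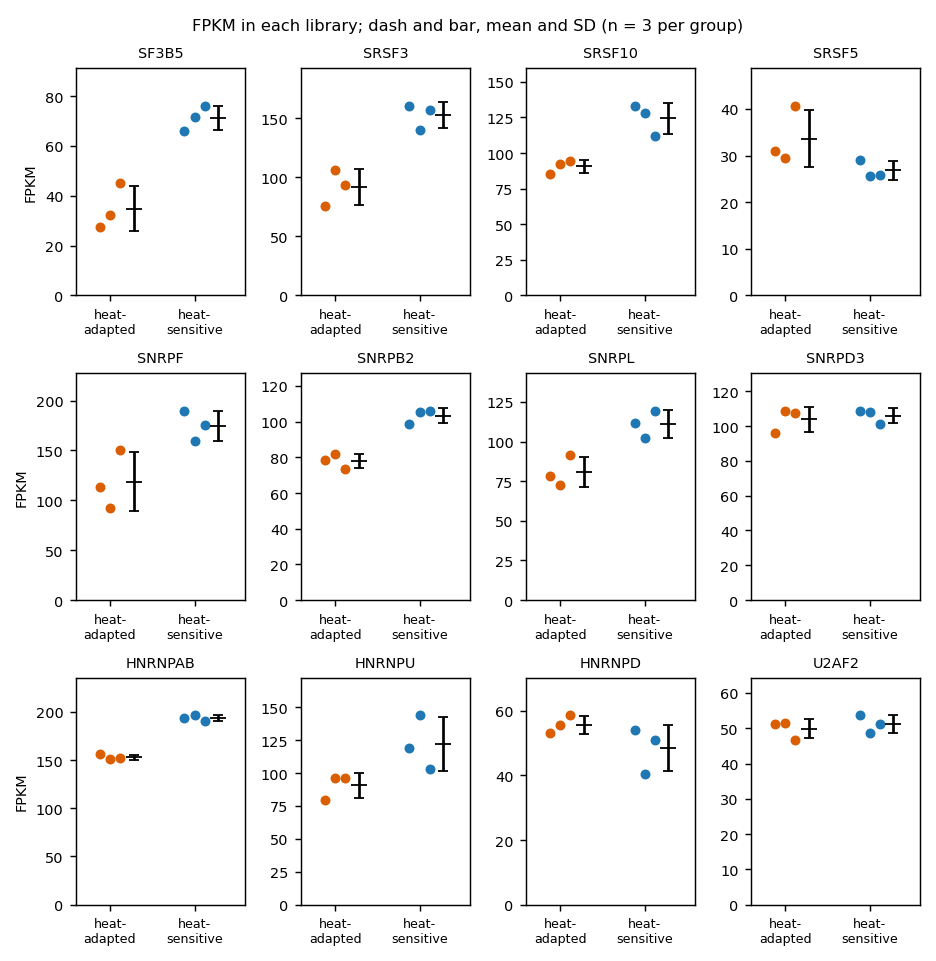
FPKM (vertical axes, from 0) of 12 splicing factor genes in the 3 heat-adapted (orange) and 3 heat-sensitive (blue) libraries, drawn in replicate order, with mean and SD. SF3B5 averages 34.9 FPKM in heat-adapted and 71.2 FPKM in heat-sensitive libraries, while SNRPD3 and U2AF2 overlap and SRSF5 is higher in the heat-adapted libraries.

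The SF3A and SF3B complexes are parts of the U2 particle that grip the branch point, the adenosine used in the first step of splicing. All 8 SF3 genes had a log2 difference below 0 in FPKM and 7 in TPM, with 3 and 1 of them not overlapping, against 12.9% and 7.35% of all genes with the heat-adapted libraries lower. The largest difference of all 48 genes was in SF3B5, a very small subunit that packs against the SF3B core. SF3B5 was at 27.6, 32.1 and 45.0 FPKM in the heat-adapted libraries, against 66.1, 71.5 and 75.9 FPKM in the heat-sensitive ones. Its level in the heat-adapted group was 0.490 times that in the heat-sensitive group as a ratio of means, and the groups were far apart (log2 difference -1.04, SE 0.18, limma adjusted p = 0.0701). The adjusted p was 0.0191 without heat-adapted replicate 3, the highest of its group, and lay between 0.0191 and 0.183 over all alternatives run. The other 7 SF3 genes had log2 differences between -0.29 and -0.00021, and none had an unadjusted p under 0.05. SF3B1, the scaffold of SF3B and the most abundant SF3 gene, was at 142, 173 and 191 FPKM in the heat-adapted libraries, against 222, 194 and 148 FPKM in the heat-sensitive ones. Its groups overlapped, with the highest value in heat-sensitive replicate 1 (log2 difference -0.14, SE 0.19, limma adjusted p = 0.724). SF3B6, which sits beside the branch point adenosine, averaged 114 ± 14.8 FPKM in heat-adapted and 139 ± 12.8 FPKM in heat-sensitive libraries (SD, n = 3 each), with a log2 difference of -0.29 and overlapping groups.

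SF3A2 and SF3A3, subunits of SF3A, did not overlap between the groups. SF3A2 averaged 45.0 ± 1.57 FPKM in heat-adapted and 53.6 ± 2.36 FPKM in heat-sensitive libraries (SD, n = 3 each), and SF3A3 averaged 43.0 ± 3.73 FPKM in heat-adapted and 50.7 ± 2.68 FPKM in heat-sensitive libraries, with log2 differences of -0.25 and -0.24 (limma adjusted p = 0.321 and 0.368). SF3A1, the third SF3A subunit, was at 30.6, 34.1 and 26.6 FPKM in the heat-adapted libraries, against 27.2, 34.1 and 30.0 FPKM in the heat-sensitive ones. Its log2 difference was -0.00021, with a 95% interval of -0.33 to 0.33. SF3B3 and SF3B4 overlapped, with log2 differences of -0.21 and -0.13.

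The U2AF heterodimer, which finds the pyrimidine tract and the AG at the end of the intron, had a median log2 difference of -0.066, the closest to 0 of the families in FPKM. U2AF2, the subunit that binds the pyrimidine tract, was at 51.3, 51.5 and 46.8 FPKM in the heat-adapted libraries, against 53.6, 48.6 and 51.3 FPKM in the heat-sensitive ones. The groups overlapped (log2 difference -0.038, SE 0.12, limma adjusted p = 0.901), and the 95% interval of the log2 difference was -0.32 to 0.24. U2AF1, the subunit that reads the AG, averaged 40.4 ± 3.92 FPKM in heat-adapted and 43.1 ± 2.47 FPKM in heat-sensitive libraries (SD, n = 3 each), with a log2 difference of -0.093 and an interval of -0.39 to 0.20. Both were higher in the heat-adapted libraries with TPM.

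The hnRNP proteins coat nascent transcripts and include the most abundant of the 48 genes. HNRNPA2B1, an RNA-binding protein of the A/B type, had the highest mean of all 48, 463 FPKM, and HNRNPA0 the lowest, 3.56 FPKM. Of the 17 HNRNP genes, 15 had lower values in the heat-adapted libraries with FPKM and 11 with TPM. Their median log2 difference was -0.19, 6 did not overlap with the heat-adapted libraries lower (12.9% of all genes tested), and 4 had an unadjusted p under 0.05 (10.9% of all genes). With TPM or median-of-ratios scaling, 0 of the 17 had such a p with lower values, against 6.05% and 8.59% of all genes. With TPM 2 did not overlap with the heat-adapted libraries lower, against 7.35% of all genes. Another 2 did not overlap with them higher, and the share of all genes for this direction is not given here. HNRNPA2B1 was at 379, 404 and 481 FPKM in the heat-adapted libraries, against 557, 519 and 436 FPKM in the heat-sensitive ones, and the groups overlapped (log2 difference -0.26, SE 0.17, limma adjusted p = 0.450).

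HNRNPAB, a relative of HNRNPA2B1, showed little spread within either group. It was at 156, 151 and 152 FPKM in the heat-adapted libraries, against 193, 196 and 191 FPKM in the heat-sensitive ones. The distance between the groups was many times the range within either, yet with TPM its unadjusted p was 0.154 and its log2 difference -0.22 (in FPKM log2 difference -0.34, SE 0.13, limma adjusted p = 0.227). HNRNPU, a scaffold protein of the nuclear matrix, was at 79.8, 96.0 and 96.6 FPKM in the heat-adapted libraries, against 119, 144 and 103 FPKM in the heat-sensitive ones. Heat-sensitive replicate 2 stood above the rest, and heat-sensitive replicate 3 lay close to the heat-adapted libraries (log2 difference -0.41, SE 0.16, limma adjusted p = 0.244). HNRNPH3, of the family that binds G-rich RNA, was at 222, 224 and 207 FPKM in the heat-adapted libraries, against 272, 295 and 250.1 FPKM in the heat-sensitive ones, without overlap (log2 difference -0.32, SE 0.14, limma adjusted p = 0.275). HNRNPA1, which often represses exons, averaged 196 ± 42.3 FPKM in heat-adapted and 258 ± 44.7 FPKM in heat-sensitive libraries (SD, n = 3 each), with overlapping groups (log2 difference -0.40, limma adjusted p = 0.329).

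HNRNPK, which binds C-rich RNA, and HNRNPKL are the copies of 1 gene on the Z and W sex chromosomes of birds, and hens carry both. HNRNPKL was at 33.6, 36.7 and 39.3 FPKM in the heat-adapted libraries, against 45.3, 46.8 and 43.2 FPKM in the heat-sensitive ones (log2 difference -0.30, SE 0.13, limma adjusted p = 0.262). HNRNPK averaged 77.1 ± 7.43 FPKM in heat-adapted and 95.2 ± 7.49 FPKM in heat-sensitive libraries (SD, n = 3 each), with a log2 difference of -0.30 (limma adjusted p = 0.295). Neither gene overlapped between the groups, and their log2 differences were nearly the same. Reads from the 2 copies can be confused, so the split between them is uncertain.

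HNRNPD and HNRNPDL, close relatives that bind AU-rich RNA and influence mRNA decay, were the 2 HNRNP genes with higher means in the heat-adapted libraries. HNRNPD was at 53.0, 55.5 and 58.5 FPKM in the heat-adapted libraries, against 54.0, 40.4 and 50.9 FPKM in the heat-sensitive ones. The groups overlapped, and heat-sensitive replicate 2 stood below the others (log2 difference 0.21, SE 0.15, limma adjusted p = 0.486). HNRNPDL averaged 304 ± 23.6 FPKM in heat-adapted and 266 ± 26.2 FPKM in heat-sensitive libraries (SD, n = 3 each), also with overlap (log2 difference 0.19). They lie near each other in the RefSeq gene order of GRCg7b, with 1 gene between them. The remaining HNRNP genes were HNRNPM, HNRNPH2, HNRNPLL, HNRNPUL1, HNRNPUL2, HNRNPA0, HNRNPA3 and HNRNPR, with log2 differences between -0.24 for HNRNPM and -0.027 for HNRNPR. Among these 8, HNRNPLL alone did not overlap between the groups. That share was near the 12.9% of all genes tested with the heat-adapted libraries lower. HNRNPH2 is listed in RefSeq as a synonym of HNRNPH1, and HNRNPA3 also as a synonym of HNRNPA1, so which gene each symbol stands for is not certain. Whether their levels include reads of a relative is not known.

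Ratios of 2 genes within a library are free of the scaling between libraries. The pairs were chosen after the values were seen and are given without a test. The ratio of SF3B5 to SF3B1 was 0.194, 0.185 and 0.235 in the heat-adapted libraries, against 0.298, 0.368 and 0.513 in the heat-sensitive ones. Against SF3B4 the ratio was 0.876, 1.21 and 1.38 in the heat-adapted libraries, against 2.09, 1.76 and 2.74 in the heat-sensitive ones. Against SF3B6, another small subunit, the ratio was 0.268, 0.299 and 0.344 in the heat-adapted libraries, against 0.479, 0.566 and 0.4997 in the heat-sensitive ones. In these 3 ratios every heat-adapted library lay below every heat-sensitive one. SF3B1, SF3B4 and SF3B6 had log2 differences of -0.14, -0.13 and -0.29, against -1.04 for SF3B5. The lower ratios thus follow from the FPKM difference of SF3B5 and are no separate evidence of it. The ratio of SRSF3 to SRSF5 was 2.44, 3.60 and 2.31 in the heat-adapted libraries, against 5.50, 5.47 and 6.10 in the heat-sensitive ones. The ratio of SRSF5 to SRSF5A was 0.192, 0.170 and 0.202 in the heat-adapted libraries, against 0.125, 0.127 and 0.123 in the heat-sensitive ones. The heat-sensitive values of the last ratio nearly coincided, and the heat-adapted ones were all above them.

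Within the Sm ring, the ratio of SNRPD1 to SNRPD3 was 1.31, 1.19 and 1.62 in the heat-adapted libraries, against 1.85, 1.66 and 1.85 in the heat-sensitive ones. Heat-adapted replicate 3 came close to heat-sensitive replicate 2 without reaching it. The ratio of SNRPF to SNRPD3 was 1.19, 0.845 and 1.40 in the heat-adapted libraries, against 1.75, 1.48 and 1.74 in the heat-sensitive ones, again without overlap. The ratio of HNRNPDL to HNRNPAB was 1.99, 1.84 and 2.13 in the heat-adapted libraries, against 1.53, 1.29 and 1.31 in the heat-sensitive ones, with the heat-adapted libraries higher. The other 5 pairs compared did not separate the groups. HNRNPDL to HNRNPD was 5.86, 5.003 and 5.52 in the heat-adapted libraries, against 5.49, 6.27 and 4.90 in the heat-sensitive ones. HNRNPK to HNRNPKL was 2.44, 2.20 and 1.75 in the heat-adapted libraries, against 1.94, 2.20 and 2.20 in the heat-sensitive ones. SNRPD1 to SNRPD2 was 4.60, 4.23 and 5.85 in the heat-adapted libraries, against 5.93, 5.19 and 5.04 in the heat-sensitive ones. U2AF1 to U2AF2 and SRSF7 to SRSF7L likewise overlapped between the groups, at 0.741 to 0.960 against 0.824 to 0.854 and at 1.97 to 2.31 against 2.21 to 2.40 (heat-adapted against heat-sensitive).

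**Figure D4:**
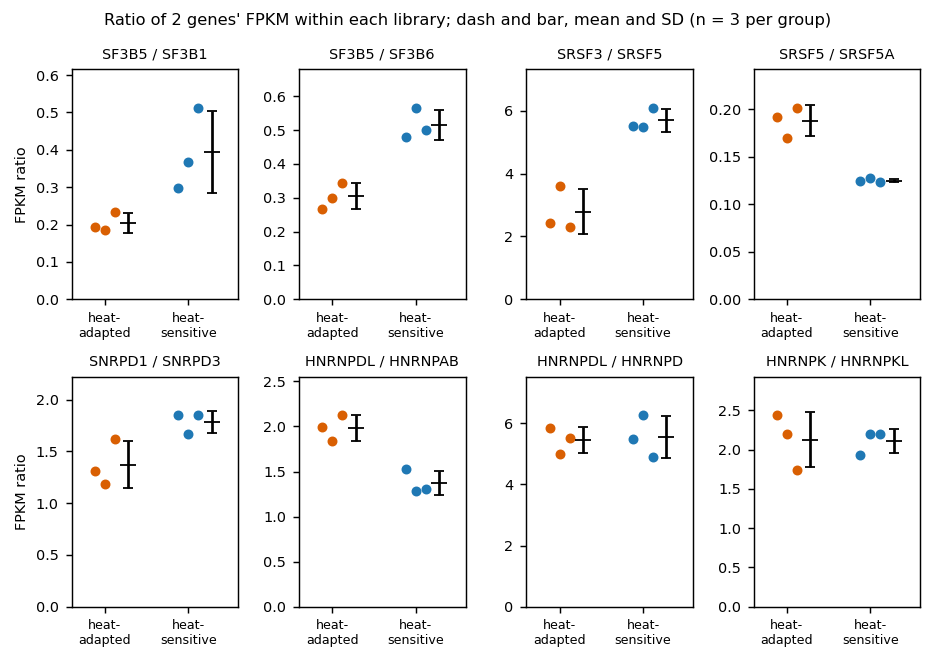
Ratio of the FPKM of 2 genes within each library (vertical axes, from 0) for 8 pairs, in heat-adapted (orange) and heat-sensitive (blue) libraries, with mean and SD. The 3 heat-adapted values lie apart from the 3 heat-sensitive ones for the first 6 pairs and overlap with them for HNRNPDL to HNRNPD and HNRNPK to HNRNPKL.

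Other genes of the splicing pathway, taken as whole lists, had medians below that of all genes, but their counts of lower genes depended on the scale and none of their members passed limma across all genes. Of the 65 further spliceosome components listed, 55 were tested and 52 of them were lower in the heat-adapted libraries (median log2 difference -0.17), 7 at an unadjusted p under 0.05, against 10.9% of all genes tested. With TPM, 31 of the 55 were lower, against 43.1% of all genes, and 3 reached such a p, a share no higher than the 6.05% of all genes. The 3 of smallest p were all Sm-like ring proteins. LSM8, which marks the nuclear LSM ring bound to U6 RNA, was at 28.4, 29.1 and 33.6 FPKM in the heat-adapted libraries, against 59.1, 49.5 and 52.8 FPKM in the heat-sensitive ones (log2 difference -0.81, limma adjusted p = 0.0684). LSM7 and LSM3, subunits of the LSM rings, had log2 differences of -0.60 and -0.47 (limma adjusted p = 0.101 and 0.185). In all 3 genes, picked for their small p, the groups did not overlap. Of the 55, 15 did not overlap with the heat-adapted libraries lower, against 12.9% of all genes tested. With TPM 8 did not, against 7.35%.

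Of 43 other splicing regulators tested, 33 were lower (median -0.19), 8 at an unadjusted p under 0.05, against 10.9% of all genes tested, and 1 was higher at such a p, against 7.13%. With TPM 28 were lower, 3 of them at such a p, a share near the 6.05% of all genes. TRA2A, a sequence-specific activator related to the SR proteins, was at 156, 165 and 189.6 FPKM in the heat-adapted libraries, against 279, 303 and 226 FPKM in the heat-sensitive ones (log2 difference -0.66, limma adjusted p = 0.120). ZRANB2, a zinc finger splicing protein, and TARDBP, a nuclear RNA-binding protein, had log2 differences of -0.49 and -0.35. Among SR protein kinases and import factors, 7 of 9 were lower (median -0.17). Only 1 of the 9 had an unadjusted p under 0.05, a share near the 10.9% of all genes tested. That gene was CLK1, a kinase of SR proteins, at 58.2, 61.8 and 119 FPKM in the heat-adapted libraries, against 138, 181 and 93.2 FPKM in the heat-sensitive ones. Its groups overlapped, and heat-adapted replicate 3 lay above heat-sensitive replicate 3 (limma adjusted p = 0.249). Of TNPO1 and SRPK2, which import and phosphorylate RNA-binding proteins, the log2 differences were -0.32 and -0.36.

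Of 15 snRNP assembly genes, 12 were lower (median -0.19), 4 at an unadjusted p under 0.05, against 10.9% of all genes tested. With TPM 10 were lower and 0 reached such a p, against 6.05% of all genes. CLNS1A and WDR77, which help methylate and hand over Sm proteins, and STRAP, a component of the SMN complex, had log2 differences of -0.38, -0.38 and -0.33 without overlap. Of the 15, 5 did not overlap with the heat-adapted libraries lower, against 12.9% of all genes tested, and 2 with TPM, against 7.35%. Of 13 exon junction and nonsense-mediated decay genes, 9 were lower (median -0.14). An unadjusted p under 0.05 was reached by 0 in either direction, against 10.9% of all genes tested lower and 7.13% higher. With TPM 7 were lower and 1 was higher at such a p, against 1342 of all 11587 genes higher. SR protein kinases and import factors kept 7 of 9 lower with TPM. RNPS1, SMG1 and MAGOH were those of smallest p, with log2 differences of -0.32, -0.43 and -0.26.

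**Figure D5:**
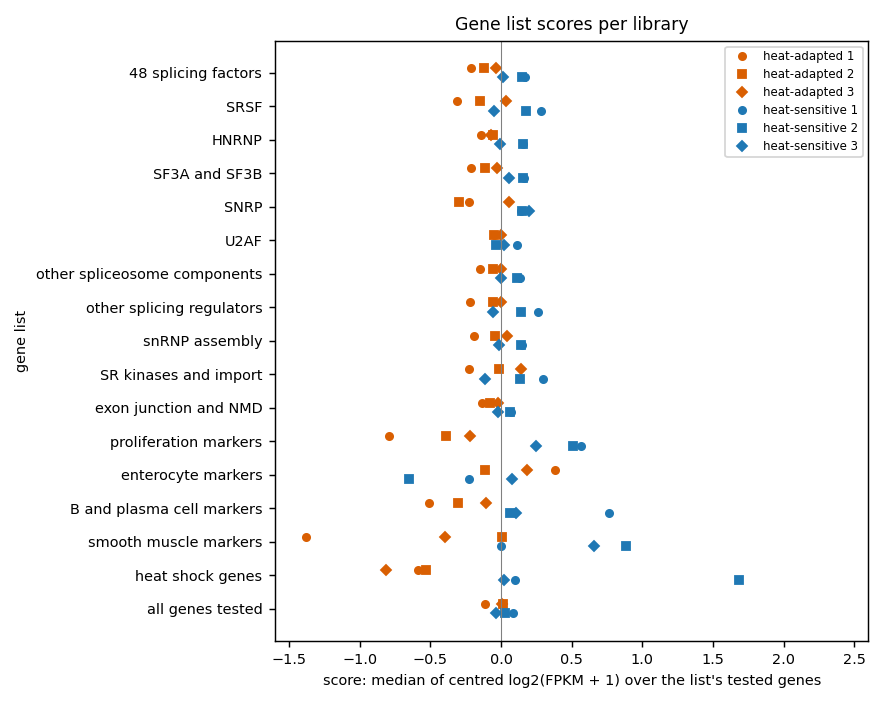
Score of each gene list in each library (horizontal axis: median over the list's tested genes of log2(FPKM + 1) centred on each gene's mean over 6 libraries); orange, heat-adapted, and blue, heat-sensitive libraries. Splicing factor scores run from -0.21 to 0.17, a narrower range than that of proliferation markers, -0.79 to 0.57, with the heat-adapted libraries lower in both.

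Marker genes of several cell types also differed in level between the libraries. The score of the 48 splicing factor genes was the median over genes of log2(FPKM + 1) minus the gene's mean, and it was -0.21, -0.12 and -0.038 in heat-adapted replicates 1, 2 and 3, and 0.17, 0.15 and 0.013 in heat-sensitive replicates 1, 2 and 3. Markers of proliferating cells had scores of -0.79, -0.39 and -0.22 in heat-adapted replicates 1, 2 and 3, and 0.57, 0.51 and 0.25 in heat-sensitive replicates 1, 2 and 3. Both scores put the 6 libraries in the same order. This order was not particular to proliferation markers. The score of the further spliceosome components had it too. That of B and plasma cell markers differed from it only in the order of heat-sensitive replicates 2 and 3. The same score over all genes tested was -0.11, 0.015 and 0.0052 in heat-adapted replicates 1, 2 and 3, and 0.086, 0.029 and -0.036 in heat-sensitive replicates 1, 2 and 3. Of the 13 proliferation markers in the table (14 listed), 13 were lower in the heat-adapted libraries. Of these, 12 had an unadjusted p under 0.05, against 10.9% of all genes tested. With TPM 13 were lower, 9 of them at such a p, against 6.05% of all genes. No proliferation marker in the table was at 0 in all libraries. Their levels summed to 157 to 221 FPKM in heat-adapted and 327 to 373 FPKM in heat-sensitive libraries. In bulk mucosa, fewer cells of a type and less RNA per cell cannot be told apart, and the part of proliferating cells in the splicing factor levels was not tested.

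Among markers of B and plasma cells 8 of 8 were lower, with sums of 13422 to 20680.2 FPKM in heat-adapted and 28248 to 31695 FPKM in heat-sensitive libraries. Most of these sums was IGLL1, with means of 14780 FPKM in heat-adapted and 25430 FPKM in heat-sensitive libraries. Of the 8, 3 had an unadjusted p under 0.05, against 10.9% of all genes tested. PAX5, CD79B, MZB1 and XBP1 overlapped between the groups. Without heat-sensitive replicate 1, 7 of the 8 were lower. Among markers of smooth muscle 9 of 9 were lower, with sums of 166 to 452 FPKM in heat-adapted and 418 to 947 FPKM in heat-sensitive libraries. Of the 9, 5 had an unadjusted p under 0.05, against 10.9% of all genes tested, and 3 with TPM, against 6.05%. Fibroblast and endothelial markers were lower in 7 of 7 and 6 of 6, with sums of 208 to 314 FPKM in heat-adapted and 252 to 512 FPKM in heat-sensitive libraries for fibroblasts and 38.0 to 70.5 FPKM in heat-adapted and 54.7 to 83.7 FPKM in heat-sensitive libraries for endothelium. Among markers of T and natural killer cells 7 of 8 were lower and among those of macrophages 4 of 6, with sums of 529.7 to 701 FPKM in heat-adapted and 509 to 836 FPKM in heat-sensitive libraries and of 3284 to 4128 FPKM in heat-adapted and 3721 to 4392 FPKM in heat-sensitive libraries. Enterocyte markers were lower in 2 of 12, goblet cell markers in 2 of 6 and endocrine markers in 2 of 6. Of the 12 enterocyte markers, 10 were higher, 4 of them at an unadjusted p under 0.05, against 7.13% of all genes tested. With TPM 6 of the 12 were higher at such a p, against 1342 of all 11587 genes. Goblet markers summed to 1034 to 1739 FPKM in heat-adapted and 1301 to 2173 FPKM in heat-sensitive libraries. Endocrine markers summed to 376 to 521 FPKM in heat-adapted and 412 to 553 FPKM in heat-sensitive libraries. No marker in the table was at 0 in all libraries. With TPM the counts of lower markers were the same except for enterocytes (1), T and natural killer cells (5) and macrophages (3). The part of these cell types in the splicing factor levels was not tested.

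Heat shock genes, the chaperones induced by heat, were lower in 14 of 14, in FPKM and in TPM. Heat-sensitive replicate 2 stood apart, with a sum of 15998 FPKM. The other heat-sensitive libraries had 3984 and 4102 FPKM, and the heat-adapted ones had 2586 to 3269 FPKM. The splicing factor score of that replicate, 0.15, lay between those of the other heat-sensitive libraries. Without it, the median log2 difference of the 48 genes was -0.23, and 43 of the 48 were lower. The part of the heat shock response in the splicing factor levels was not tested.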

How the data were processed

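Jejunal mucosa RNA-seq of 6 libraries was analysed, 3 heat-adapted and 3 heat-sensitive, each a pool of 4 hens. The submitters' processing notes name genome build GRCg6a, HTSeq 0.6.1, HISAT2 2.0.1, cutadapt 1.9.1 and DESeq2; the sources used here do not give the strand setting or the treatment of shared reads. Per the file headers, the deposited table holds FPKM values and read counts; between 13.2% and 13.7% of the counts are not whole, so the deposited counts were taken as estimated counts. They stand in another row order (Spearman's rho with FPKM of the same row -0.0048), so they gave library totals and a check of the columns only. Symbols turned into dates (19) and 1 row with no symbol were left out.

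Genes with a mean of at least 1 FPKM were fitted with limma 3.58.1 (R 4.3.3; trend, robust, no block) after taking log2(FPKM + 1), with Benjamini-Hochberg adjustment over all 11587 genes, threshold 0.05, 2-sided. This scale understates changes of low genes. The fit was tested on simulated data. Named in full were, per family, up to 6 genes with an unadjusted p under 0.05, the most abundant and the most positive one; other genes named were chosen after their values were seen. The 48 genes and all lists were chosen with earlier results of these data known. RefSeq (GRCg7b) held 42 of the 48 symbols and 3 more as synonyms, and served for names and gene order only. Alternatives covered the pseudocount, filter, scaling, spread model (limma without trend or robust fitting), replicate block and each library left out.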

Additional observations from a re-analysis of the deposited data

How the results depend on the processing

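Over all genes, 11 were called with limma, against 17 with log2(FPKM + 0.1), 7 with no filter on low values, 7 with a mean of at least 5 FPKM, 38 with TPM, 20 with median-of-ratios scaling and 6 to 64 with one library left out. Of the 48 splicing factor genes, 0 to 1 were called with one library left out (SF3B5 without heat-adapted replicate 3) and 0 under every other alternative run. Those lower at an unadjusted p under 0.05 numbered 13, against 5 with TPM, 5 with median-of-ratios scaling and 5 to 20 with one library left out. Groups that did not overlap with the heat-adapted libraries lower numbered 19, against 11 with TPM and 19 to 32 with one library left out. Over all genes tested that share was 12.9%, against 7.35% with TPM and 13.9% to 26.9% with one library left out. The median log2 difference was -0.25, against -0.13 with TPM and -0.30 to -0.19 with one library left out. Genes near 0 changed sign. SF3A1 was at 0.12 with TPM, 0.079 with median-of-ratios scaling, 0.011 with quantile normalization and -0.083 to 0.089 with one library left out. SNRPD3 was at 0.095 with TPM, 0.053 with median-of-ratios scaling and -0.061 to 0.030 with one library left out. U2AF2 was at 0.083 with TPM, 0.042 with median-of-ratios scaling and -0.074 to 0.0063 with one library left out. Rescaling to TPM multiplies every gene of a library by the same factor, and it moved the median over all genes tested from -0.058 to 0.052. Why the FPKM sums differ between libraries was not tested.

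Same-numbered libraries deviated from their group means with Pearson's r across genes of -0.16, 0.11 and -0.19 for replicates 1, 2 and 3, so the numbers were not taken as pairs; heat-adapted replicate 1 correlated best with heat-sensitive replicate 3. With the replicate block, 46 genes were called, 0 of them among the 48 splicing factor genes. Of the 48, 7 had an unadjusted p under 0.05 and lower values (14.6%, against 8.69% of all genes tested). Depth per gene is not known for the FPKM values, so no counting interval is given.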
